A study of Mus musculus with 7 samples.

Results

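The genes described here build and police the mitotic division of a cell: cyclin B (Ccnb1, Ccnb2) and its kinase Cdk1, the mitotic kinases Plk1, Aurka and Aurkb, the checkpoint kinase Bub1, the anaphase activator Cdc20, the passenger protein survivin (Birc5) and DNA topoisomerase II alpha (Top2a). They were chosen by name, as 10 genes, from an array of 23332 transcript clusters, with earlier results of these data known. Each was represented by the cluster that the platform annotation ties to that 1 gene symbol. If there were several, the one with the highest mean was taken. Of the 10 genes, 9 had such a cluster. For Ccnb1 the annotation lists no cluster, and the gene was not analysed here.

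RNA came from bone marrow LSK cells, a sorted fraction that lacks mature lineage markers, carries Sca-1 and c-Kit and is rich in blood stem and progenitor cells. The labels give 3 adult FVB mice as TRAF6 transgenic (03, 04 and 05) and 4 adult FVB littermates as wild type (21, 22, 23 and 24). No mouse had been treated, and each had 1 Affymetrix mouse exon array. TRAF6 is a ubiquitin ligase of innate immune signalling, and the promoter that drives its transgene is not given in the sources used here.

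Cyclin B with Cdk1 drives entry into mitosis. Aurora A and Plk1 ripen the centrosomes and build the spindle, Aurora B corrects faulty attachments of chromosomes, and the spindle checkpoint holds Cdc20 back until every chromosome is attached. Cdc20 then switches on the anaphase-promoting complex, which marks cyclin B and securin for destruction. In the bone marrow, long-term stem cells mostly rest outside the cycle, while the progenitors of the same gate divide.

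All 9 measured genes had a higher mean on the labelled transgenic arrays than on the wild-type arrays, by 0.13 to 0.48 on the log2 scale with a median of 0.33. The median difference over all clusters was -0.00176, and 49.7% of all clusters were higher. With limma 0 of the 9 genes passed an adjusted p of 0.05, against 0.0214% of all clusters in either direction and 0% for higher values. The clusters that passed included those of the Y-linked genes Eif2s3y and Kdm5d, described below. At an unadjusted p under 0.05, 3 genes were higher (Plk1, Aurkb and Birc5), where 5.22% of all clusters were, and 6.77% of those above the 40th percentile of mean signal, as the 9 are. Labelled transgenic and wild-type arrays did not overlap in 1 gene, Aurkb, where 5.17% of all clusters, and 6.46% of those above that percentile, were higher without overlap. Unmoderated least squares also called 0 of the 9 at the adjusted threshold. In RNA from sorted bulk cells, a larger share of cells in division and more RNA per dividing cell cannot be told apart.

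Some facts of the whole series touch every comparison. Traf6 itself was not higher on the labelled transgenic arrays (7.91 ± 0.34, SD, n = 3) than on the wild-type arrays (8.15 ± 0.16, SD, n = 4), so the arrays gave no check of the genotype label. The Y-linked gene Eif2s3y stood near 2.99 on the 3 labelled transgenic arrays and near 8.44 on the 4 wild-type arrays, and Kdm5d, also Y-linked, near 4.06 and 6.68, so the labelled genotype and this Y-linked signal cannot be told apart. Labelled transgenic 05 differed most from the rest, with the lowest array weight (0.284) and the lowest median signal (5.98, against 6.21 on wild type 24, the highest). Kit, which encodes the c-Kit of the gate, averaged 10.45 ± 0.27 on the labelled transgenic and 10.50 ± 0.10 on the wild-type arrays (SD), while Ly6a, which encodes Sca-1, was not measured by a single-gene cluster.

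**Figure D1:**
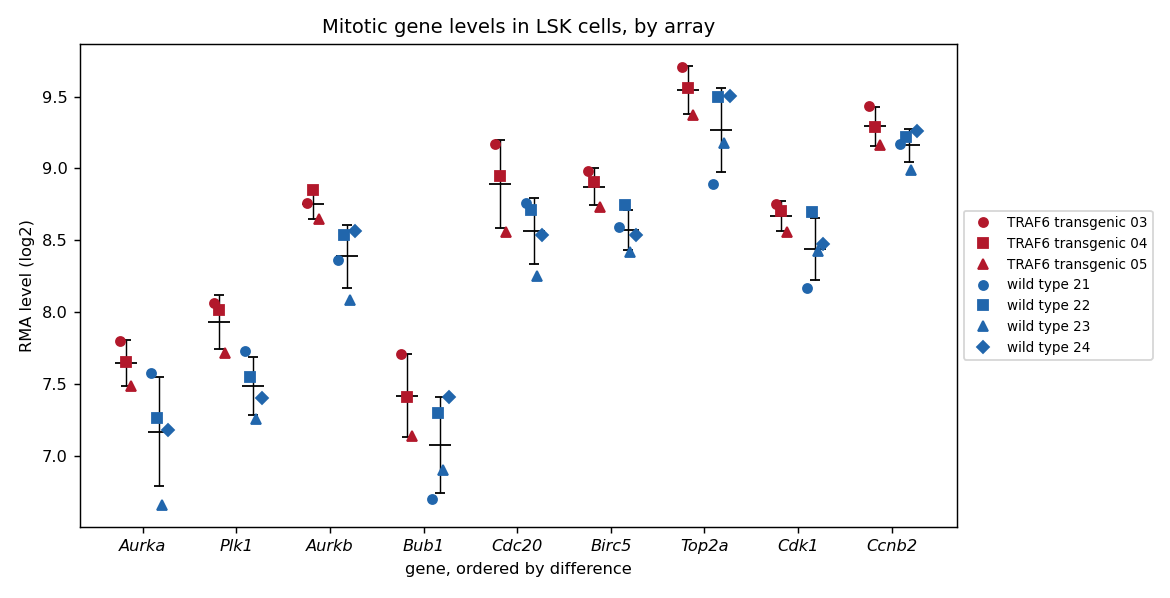
Deposited RMA level (log2, vertical axis) of the 9 measured mitotic genes on each array, labelled transgenic in red left of wild type in blue, with mean and SD bars in black. Labelled transgenic 05 is the lowest of its group in every gene, and only Aurkb leaves a gap between the groups; heights of different genes are not comparable, since each has its own probes.

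Among the mitotic kinases, Aurka had the largest difference. Aurora A kinase acts at centrosomes and spindle poles. Its log2 level was 7.80, 7.65 and 7.48 on labelled transgenic 03, 04 and 05, against 7.58, 7.26, 6.66 and 7.18 on wild type 21, 22, 23 and 24. Wild type 21 lay above labelled transgenic 05, and wild type 23 lay far below every other array, so the groups overlapped. The group means were 7.65 ± 0.16 and 7.17 ± 0.38 (SD, n = 3 labelled transgenic and 4 wild type). The difference of 0.48 (SE 0.21, limma 95% interval -0.02 to 0.97) is a 1.39-fold ratio, and its limma unadjusted p of 0.0582 became an adjusted p of 0.504.

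Plk1, polo-like kinase 1, works with Aurora A at the centrosome and helps switch on Cdk1. Its level was 8.07, 8.02 and 7.72 on labelled transgenic 03, 04 and 05, against 7.73, 7.55, 7.26 and 7.41 on wild type 21 to 24. The groups overlapped by a hair, wild type 21 lying 0.0134 above labelled transgenic 05. The difference was 0.45 (SE 0.15, interval 0.10 to 0.80), a 1.36-fold ratio, with the smallest limma p of the 9 genes (unadjusted p = 0.0192, adjusted p = 0.411). A second cluster that the annotation ties to Plk1 alone differed in the other direction. It had 5.33, 4.96 and 4.88 on the labelled transgenic arrays, against 4.87, 5.48, 5.11 and 5.44 in wild type, a difference of -0.17 (SE 0.19, adjusted p = 0.799). Which of the clusters reads Plk1 better was not tested.

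Aurkb, Aurora B, is the enzyme of the chromosomal passenger complex. It was the 1 gene of the 9 whose groups did not overlap. Labelled transgenic arrays had 8.76, 8.85 and 8.65, against 8.36, 8.54, 8.08 and 8.57 in wild type, a gap of 0.0810 between the nearest arrays. The difference was 0.36 (SE 0.14, interval 0.03 to 0.70, adjusted p = 0.453). Aurkb was also the 1 gene in which labelled transgenic 04, and not 03, was the highest array.

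Cdk1, the catalytic partner of cyclin B, differed less. It had 8.76, 8.71 and 8.56 on labelled transgenic 03, 04 and 05, against 8.17, 8.70, 8.43 and 8.47 on wild type 21 to 24. Wild type 22 lay level with labelled transgenic 04, and wild type 21 was the lowest array. The difference was 0.23 (SE 0.14, interval -0.10 to 0.56, adjusted p = 0.614). Ccnb2, the measured B-type cyclin, had the smallest difference of the 9 genes. It stood at 9.43, 9.29 and 9.16 on the labelled transgenic arrays, against 9.17, 9.22, 8.99 and 9.26 in wild type. The difference of 0.13 (SE 0.12, interval -0.14 to 0.41, adjusted p = 0.734) is within the spread between mice. Of all clusters, 73.1% had a lower difference than Ccnb2 and 96.2% a lower difference than Aurka.

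Promoters of G2 and mitotic genes are known for a cell cycle homology region, the site where repressor and activator complexes of the cycle meet, and for CCAAT boxes bound by the factor NF-Y. Promoter windows, from 250 bases before to 50 after a transcript start, were taken from RefSeq on build GRCm38.p6, which is not the mm9 build of the arrays. They were found for 9 of the 10 genes, Ccnb1 included. Aurkb had no entry. The windows of Aurka and Plk1, the genes with the largest differences, and of Cdk1 and Ccnb2, with the smallest, are printed 5′ to 3′ along the gene. Capitals mark TTTGAA and TTTAAA, forms of the homology region, and CCAAT, each searched on both strands, so that ATTGG in capitals is a CCAAT box on the other strand.
Aurka (chr2:172370521-172370820, minus strand): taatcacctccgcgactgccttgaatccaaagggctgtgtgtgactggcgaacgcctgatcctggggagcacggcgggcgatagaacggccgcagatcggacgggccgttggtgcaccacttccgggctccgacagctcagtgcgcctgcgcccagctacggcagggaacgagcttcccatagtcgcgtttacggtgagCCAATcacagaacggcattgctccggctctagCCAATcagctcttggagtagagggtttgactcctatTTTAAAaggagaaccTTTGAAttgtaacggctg
Plk1 (chr7:122159185-122159484, plus strand): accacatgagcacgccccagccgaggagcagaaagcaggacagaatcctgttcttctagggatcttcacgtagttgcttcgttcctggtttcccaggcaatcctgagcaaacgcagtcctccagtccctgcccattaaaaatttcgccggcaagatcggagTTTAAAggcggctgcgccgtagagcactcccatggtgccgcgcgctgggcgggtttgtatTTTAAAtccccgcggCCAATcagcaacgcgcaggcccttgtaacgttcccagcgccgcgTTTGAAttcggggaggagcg
Cdk1 (chr10:69352863-69353162, minus strand): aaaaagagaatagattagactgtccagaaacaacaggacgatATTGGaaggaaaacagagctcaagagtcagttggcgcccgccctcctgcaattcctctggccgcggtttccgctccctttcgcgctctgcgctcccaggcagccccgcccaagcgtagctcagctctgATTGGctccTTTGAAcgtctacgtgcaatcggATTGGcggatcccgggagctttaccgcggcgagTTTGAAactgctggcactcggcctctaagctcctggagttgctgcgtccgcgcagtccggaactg
Ccnb2 (chr9:70421505-70421804, minus strand): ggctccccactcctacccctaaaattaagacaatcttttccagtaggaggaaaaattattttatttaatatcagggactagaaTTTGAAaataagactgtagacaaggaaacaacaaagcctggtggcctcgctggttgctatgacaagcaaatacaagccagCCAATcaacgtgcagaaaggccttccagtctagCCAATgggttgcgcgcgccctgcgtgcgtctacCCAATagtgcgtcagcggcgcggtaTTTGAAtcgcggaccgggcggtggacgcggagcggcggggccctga
No 2 of these matches overlapped in the printed windows. In Aurka a pair of CCAAT boxes began 51 and 19 bases before the start, with TTTAAA at base 18 and TTTGAA at base 33 after it. In Plk1 the CCAAT box began 14 bases before the start, TTTAAA 89 and 29 bases before it, and TTTGAA at base 31 after it. Cdk1 had TTTGAA from 71 and 15 bases before the start with 3 CCAAT boxes, all on the other strand. Ccnb2 had 3 CCAAT boxes, beginning 87, 54 and 21 bases before the start, and TTTGAA from 167 bases before the start and at base 5. TTTGAA was present in 6 of the 9 windows and in 17.9% of all 32851 promoter windows of the table. TTTAAA was present in 4 of 9 and in 13.2% of all windows. At least 2 CCAAT boxes were present in 7 of 9 windows and in 11.7% of all. The printed windows held 3 CCAAT boxes in Ccnb2 and in Cdk1, 2 in Aurka and 1 in Plk1. Among the windows not printed, that of Top2a held 6 and that of Birc5 0. Whether the number of boxes goes with the difference in expression was not tested. These matches are descriptions of the letters and not sites shown to be bound.

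**Figure D2:**
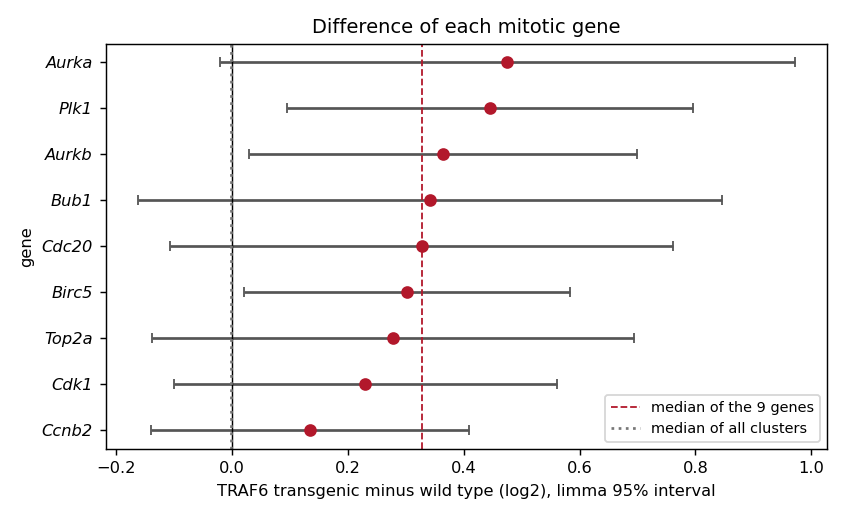
Difference of each of the 9 genes, labelled transgenic minus wild type (log2, horizontal axis), with limma 95% intervals. All 9 points lie right of 0 and the intervals of 3 genes (Plk1, Aurkb and Birc5) leave 0 out; the dashed line is the median of the 9 genes (0.33) and the dotted line that of all clusters (-0.00176).

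Bub1 and Cdc20 stand on opposite sides of the spindle checkpoint. Bub1, the kinase that gathers checkpoint proteins at kinetochores, varied widely in both groups. It had 7.71, 7.41 and 7.14 on labelled transgenic 03, 04 and 05, against 6.70, 7.30, 6.90 and 7.41 on wild type 21 to 24. Wild type 24 reached the level of labelled transgenic 04. The difference was 0.34 (SE 0.22, interval -0.16 to 0.85, adjusted p = 0.622). Cdc20, the activator that the checkpoint restrains, had 9.17, 8.94 and 8.56, against 8.76, 8.71, 8.25 and 8.54 in wild type. Labelled transgenic 05 lay among the wild-type arrays in this gene. The difference was 0.33 (SE 0.19, interval -0.11 to 0.76, adjusted p = 0.586).

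Birc5 encodes survivin, which docks Aurora B and the passenger complex at centromeres. It had 8.98, 8.91 and 8.73 on the labelled transgenic arrays, against 8.59, 8.75, 8.42 and 8.54 in wild type. The groups touched, wild type 22 lying 0.0125 above labelled transgenic 05. The difference was 0.30 (SE 0.12, interval 0.02 to 0.58, unadjusted p = 0.0385, adjusted p = 0.455, limma). Top2a, the enzyme that untangles sister chromatids, had 9.71, 9.56 and 9.37, against 8.89, 9.50, 9.18 and 9.50 in wild type. Wild type 22 and 24 lay above labelled transgenic 05. The difference was 0.28 (SE 0.18, interval -0.14 to 0.69, adjusted p = 0.629).

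The arrays of each group also differed among themselves. Averaged over the 9 genes, the deviation from the wild-type mean was 0.47, 0.36 and 0.14 on labelled transgenic 03, 04 and 05, against -0.02, 0.15, -0.22 and 0.08 on wild type 21, 22, 23 and 24. Wild type 22 thus lay above labelled transgenic 05. Labelled transgenic 03 exceeded the highest wild-type array in 9 of 9 genes, 04 in 8 and 05 in 1. The share of all clusters that did so was not computed for single arrays, so these counts cannot be called particular to the 9 genes. Labelled transgenic 05 was the lowest of its group in 9 of 9 genes, and wild type 23 the lowest of its group in 6. For these counts too, the share of all clusters was not computed. By average deviation, array 05 was likewise the lowest of its group in each wider mitotic list described below. The same held for replication licensing (0.09, against 0.45 and 0.40 on 03 and 04) and G1 cyclins and kinases (-0.11, against 0.28 and 0.18). Lists outside the cycle were mixed. Array 05 was again the lowest of its group in granulocyte and monocyte progenitor genes (0.12, against 0.24 and 0.31). The same held for genes of the LSK gate and its subsets (-0.33, against 0.22 and 0.10). In mature lineage genes it lay between the others (0.081, against 0.037 and 0.084). In erythroid progenitor genes array 05 was the highest of its group (0.29, against 0.26 and 0.10).

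Wild type 21 split the genes. It was the highest wild-type array for Plk1, Aurka and Cdc20 and the lowest for Cdk1, Bub1 and Top2a. The average deviation of Plk1, Aurka and Cdc20 was 0.60, 0.46 and 0.18 on labelled transgenic 03, 04 and 05, against 0.28, 0.10, -0.35 and -0.03 on wild type 21 to 24. That of Cdk1, Bub1 and Top2a was 0.46, 0.30 and 0.09 on the labelled transgenic arrays, against -0.34, 0.23, -0.09 and 0.20 in wild type. The gap between these averages was 0.62 on wild type 21 and ran from -0.26 to 0.17 on the other 6 arrays. The split was chosen after its values were seen, and no test was made of it.

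**Figure D3:**
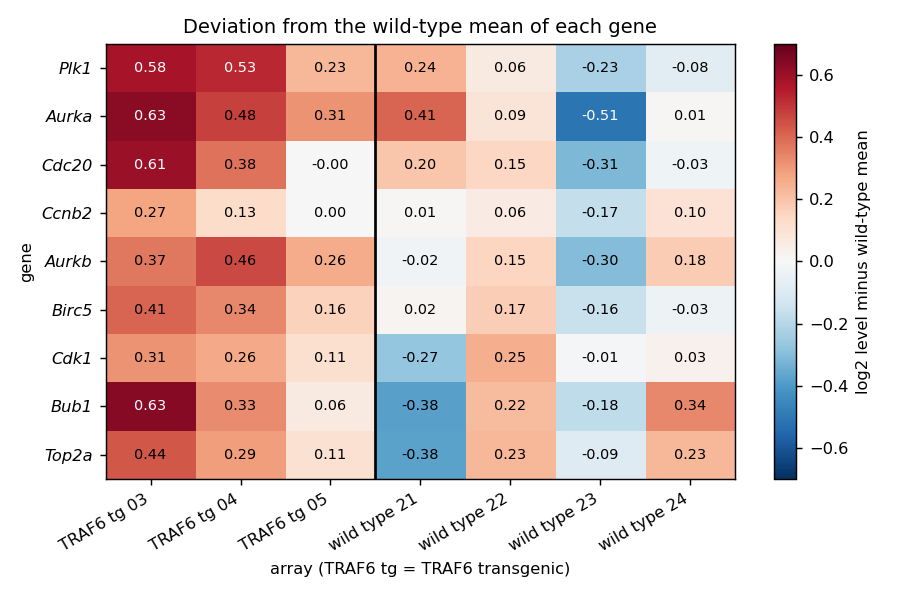
Log2 level of each gene (rows) on each array (columns) minus that gene's wild-type mean, red above and blue below, with the 3 labelled transgenic arrays left of the black line. Wild type 21 is red for Plk1, Aurka and Cdc20 and blue for Cdk1, Bub1 and Top2a.

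Around these genes, 113 further genes of mitosis in 5 lists were looked up, and 97 had a cluster of their own. On the labelled transgenic arrays 74 were higher, where 49.7% of all clusters were, and 23 lower, with a median difference of 0.18. None passed the adjusted threshold with limma. At an unadjusted p under 0.05, 16 were higher and 0 lower, against 5.22% of all clusters higher and 5.05% lower. The 16 became 5 without labelled transgenic 03, 5 without 04, 6 without wild type 23 and 36 without labelled transgenic 05. The share of all clusters higher at that p was 3.46%, 2.99%, 3.21% and 11.7% in the same order. The lists were chosen with earlier results of these data known.

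The genes nearest in function to Aurkb, Birc5 and Bub1 had the highest median of the 5 lists. Of 13 measured genes of the passenger complex and spindle checkpoint, 12 were higher, with a median of 0.32, and 4 had an unadjusted p under 0.05. Beside these counts and those of the lists below, 49.7% of all clusters were higher, and 5.22% were higher at that p. Incenp, the scaffold of the passenger complex, had 9.17, 8.97 and 8.80 on labelled transgenic 03, 04 and 05, against 8.51, 8.60, 8.33 and 8.56 in wild type, without overlap. Its difference was 0.48 (SE 0.13, adjusted p = 0.342). Cdca8, or borealin, differed by 0.40 (SE 0.14, adjusted p = 0.409) with overlapping groups. The 4 subunits of the passenger complex, Aurkb, Birc5, Incenp and Cdca8, thus differed by between 0.30 and 0.48, and none passed. Bub1b, the checkpoint protein BubR1 that inhibits Cdc20, had 9.07, 8.92 and 8.73, against 8.43, 8.52, 8.43 and 8.56 in wild type. The groups did not overlap, and the difference was 0.42 (SE 0.11, adjusted p = 0.350).

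Kinetochore and centromere genes were higher in 16 of 20, with a median of 0.23. Spc24, a subunit of the NDC80 complex that grips microtubules, differed by 0.46 (SE 0.13, adjusted p = 0.375) and Mis12, a kinetochore subunit, by 0.72 (SE 0.25, adjusted p = 0.413), in both without overlap. Pmf1, a partner of Mis12, differed by 0.35 (SE 0.13, adjusted p = 0.447). Of 18 genes of the anaphase-promoting complex and its substrates, 11 were higher and the median was 0.14. Ube2c, the conjugating enzyme of that complex, differed by 0.52 (adjusted p = 0.283) and Espl1, the separase that cuts cohesin at anaphase, by 0.38 (SE 0.13, adjusted p = 0.417), without overlap. Anapc10, a subunit of the complex, stood at -0.40 (SE 0.17, adjusted p = 0.488).

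Genes of mitotic entry and G2/M transcription were higher in 21 of 28, with a median of 0.18. The 3 with the smallest p were Rbl1, a pocket protein related to the retinoblastoma protein (0.43, SE 0.16, adjusted p = 0.437), the kinase gene Melk (0.39, SE 0.16, adjusted p = 0.473) and Mybl2, the B-Myb factor that activates G2/M genes (0.37, SE 0.16, adjusted p = 0.477). Groups overlapped in all 3. Condensin, cohesin and topoisomerase genes were higher in 14 of 18, with a median of 0.14. Cdca5, sororin, which keeps cohesin on chromatin, differed by 0.51 (SE 0.15, adjusted p = 0.375) without overlap. The condensin subunits Ncapd2 and Ncapd3 differed by 0.31 (SE 0.13) and 0.19 (SE 0.13), with overlap.

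**Figure D4:**
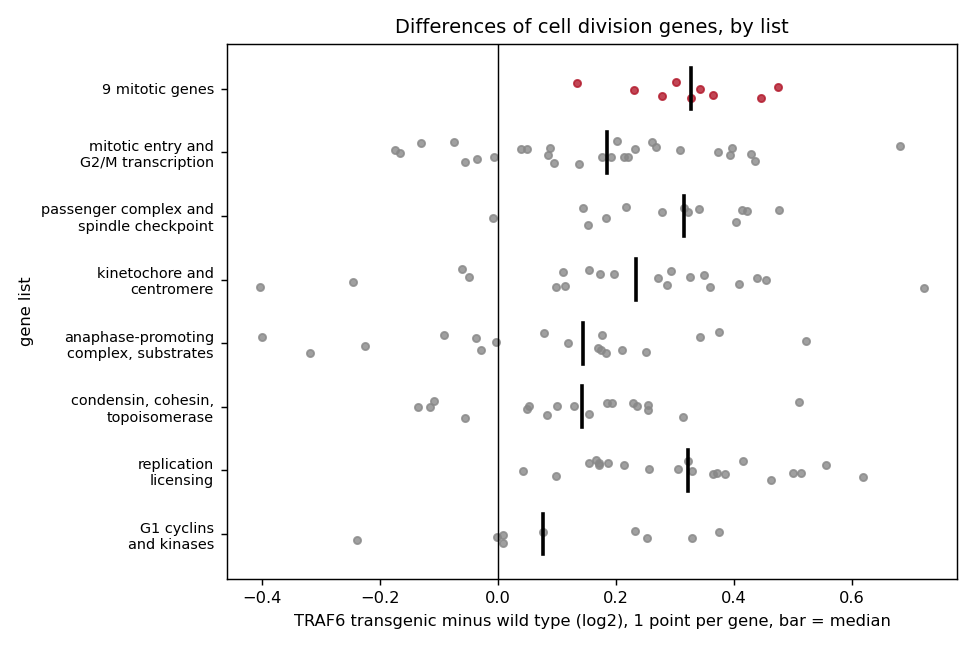
Difference of every measured gene, labelled transgenic minus wild type (log2, horizontal axis), in the 9 mitotic genes (red) and 7 other lists (grey), with the list median as a black bar. Medians run from 0.08 in the G1 list to 0.33 in the 9 mitotic genes, and every list except the 9 mitotic genes and replication licensing holds genes on both sides of 0.

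Earlier phases of the cycle were set beside the mitotic genes. All 21 genes of replication licensing, which load and fire the replicative helicase before and during S phase, were higher, with a median of 0.32, 10 of them at an unadjusted p under 0.05 (5.22% of all clusters, and 6.77% above the 40th percentile of mean signal) and 9 without overlap (5.17% and 6.46%). Mcm5 and Cdc45, parts of that helicase, differed by 0.56 (SE 0.15, adjusted p = 0.355) and 0.50 (SE 0.14, adjusted p = 0.370), and Mcm7 by 0.62 (adjusted p = 0.306). In each of these 3 genes the groups did not overlap. The array averages of all 21 licensing genes lay at 8.46, 8.41 and 8.10 on labelled transgenic 03, 04 and 05, against 7.89 to 8.11 in wild type. In that average array 05 again fell inside the wild-type range. Of 9 G1 cyclins and kinases 7 were higher, with a median of 0.08. Cdk4, the G1 kinase, differed by 0.33 (SE 0.12, adjusted p = 0.437), Ccne1, cyclin E1, by 0.38 (SE 0.20, adjusted p = 0.561), and Ccnd1, cyclin D1, by -0.24 (SE 0.12, adjusted p = 0.558). Whether the mitotic genes differed more than either list was not tested.

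Most measured markers of other progenitors had a higher mean on the labelled transgenic arrays, against 49.7% of all clusters. None of these markers passed the adjusted threshold. Of 11 measured granulocyte and monocyte progenitor genes 10 were higher. The average of the 11 ran from 7.63 to 7.82 on the labelled transgenic arrays and from 7.38 to 7.60 in wild type, without overlap. Differences of the single genes ran from -0.34 to 0.76, and no background was computed for list averages. Of 8 erythroid progenitor genes 7 were higher, with overlapping averages of 7.83 to 8.01 and of 7.60 to 7.85 (labelled transgenic and wild type). Gata1, the erythroid transcription factor, differed by 0.61, and Ctsg and Prtn3, proteases of granulocyte precursors, by 0.76 and 0.66 (adjusted p = 0.279 for each). Mature lineage genes averaged 5.26 to 5.31 on the labelled transgenic arrays and 5.13 to 5.35 in wild type, with 6 of 10 higher. Among genes that mark subsets of LSK cells and are not part of the gate described above, Flt3, a receptor of lymphoid-primed progenitors, differed by -0.67 (adjusted p = 0.283). Cd48, a marker of progenitors past the stem cell stage, stood at 8.80, 8.81 and 8.30 on labelled transgenic 03, 04 and 05, against 8.35, 8.03, 7.75 and 8.20 in wild type (0.55, SE 0.19, adjusted p = 0.413). Slamf1, a stem cell surface marker, differed by 0.26, the erythropoietin receptor gene Epor by 0.21 and the carbonic anhydrase gene Car2 by -0.33. Of the mature lineage genes, the B cell receptor gene Cd79b differed by 0.41, the macrophage receptor gene Csf1r by 0.27 and the T cell gene Cd4 by -0.32, none past the adjusted threshold. The part of such cells in the mitotic gene differences was not tested.

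Leaving out 1 array at a time kept all 9 differences above 0, but moved their size. The count of genes at an unadjusted p under 0.05, 3 with all arrays, dropped to 0 on omission of any of labelled transgenic 03, labelled transgenic 04 or wild type 23. The share of all clusters higher at that p also fell, from 5.22% to 3.46%, 2.99% and 3.21% in that order. The median of the 9 was 0.198 without labelled transgenic 03 and 0.416 without 05. Aurka ranged from 0.31 without wild type 23 to 0.61 without wild type 21. Top2a was lowest, at 0.15, without wild type 21, and Cdc20 was lowest, at 0.19, without labelled transgenic 03.

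**Figure D5:**
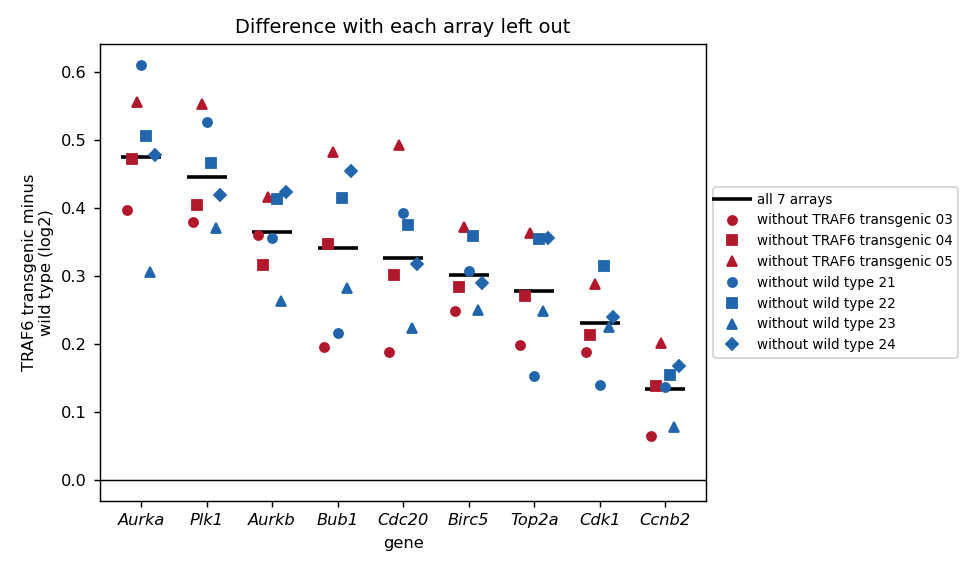
Difference of each gene, labelled transgenic minus wild type (log2, vertical axis), with all 7 arrays (black bar) and with 1 array left out (red for a labelled transgenic array, blue for a wild-type array). Every point lies above 0; the lowest belongs to Ccnb2 without labelled transgenic 03 (0.06).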

How the data were processed

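RNA of LSK cells from 3 labelled transgenic and 4 wild-type mice was measured with 1 array each. According to the submitters' processing notes, the authors used RMA to produce the deposited log2 values, with build mm9 named. RMA usually includes a step that equalises arrays, yet array medians of the deposited values still ran from 5.98 to 6.21. Shifts shared by most genes may therefore remain in part. Settings and annotation release are not given in the sources used here, and the log2 scale was inferred from the range, 1.28 to 14.03.

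Of 23332 clusters, 14996 had 1 gene symbol, 1019 several and 7317 none. Pairwise correlations of arrays ran from 0.956 to 0.983, with no duplicates. Differences (labelled transgenic minus wild type) were tested two-sided with limma 3.58.1 (lmFit, eBayes) in R 4.3.3 on all 7 arrays and all clusters, with Benjamini-Hochberg adjustment over them. The fit was tested on simulated data. The number of arrays limits precision, and p-values measure only the spread between these mice. Genes named beyond the 9 are the 3 of each list with the smallest unadjusted p, genes past the threshold, the 10 genes most like the 9, and Kit, Traf6, Eif2s3y and Kdm5d as checks; the passenger subunits fall among them. Members and lists were chosen with earlier results of these data known. Figures used matplotlib 3.10.9. No detection calls were used. Exon usage was not analysed here.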

Additional observations from a re-analysis of the deposited data

How the results depend on the processing

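The 9 genes stayed higher and 0 passed an adjusted p of 0.05 under removal of clusters up to the 40th percentile by mean level, centring on array medians, quantile normalization, array weights, a robust prior with intensity trend, unmoderated least squares, 1 cluster per gene, and a threshold of 0.1; the smallest adjusted p was 0.106, for Plk1 with array weights. The 1 reversal was Plk1 read from its lower-mean cluster, at -0.17. Genes of the 9 at an unadjusted p under 0.05 (3) became 5 with array weights, where 13.1% of all clusters were higher at that p, and ran from 0 to 4 on leaving out 1 array. The count of higher wider mitotic genes at that p (16 of 97, alternatives added after seeing the data) moved with the share of all clusters higher at that p (5.22%). It became 27 with quantile normalization (share 7.56%), 30 with centring (9.25%) and 39 with array weights (13.1%). On leaving out 1 array it ran from 5 (without labelled transgenic 03 or 04, shares 3.46% and 2.99%) to 36 (without 05, 11.7%), with 6 without wild type 23 (3.21%). Over these scalings the median of all clusters moved to 0.0203 (quantile normalization) and 0.0560 (centring). Exact permutation tests over the 35 assignments of arrays gave p from 0.0571 (Aurkb) to 0.286 (Ccnb2), two-sided, with 0.0286 the smallest this design allows. No paired analysis was possible because the groups share no replicate numbers. No detection call was used, so the distance of any signal from background is unknown.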

Other observations

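The genes whose values followed the average of the 9 mitotic genes most closely over the 7 arrays were ranked by Pearson's r among 14851 other genes, as a description with no test, since they were picked for it and all share the same arrays. Qrsl1 (r = 0.992) encodes a subunit of the mitochondrial amidotransferase that converts glutamyl to glutaminyl transfer RNA, Rars2 (0.981) the mitochondrial arginyl transfer RNA synthetase, and Cisd1 (0.989) an iron-sulphur protein of the outer mitochondrial membrane. Adpgk (0.991) encodes an ADP-dependent glucokinase. Gen1 (0.985) cuts Holliday junctions, H2ax (0.980) is the histone variant marked at DNA breaks, and the kinase Melk (0.980) was the 1 gene of the 10 that the mitotic lists also hold. Nmral1 (0.979), Aaas (0.978), a nuclear pore protein, and Cep41 (0.977), a centrosomal protein, completed the 10. Cisd1, Gen1 and Rars2 separated the groups, at differences of 0.53, 0.50 and 0.38 (limma adjusted p from 0.404 to 0.413), and the other 7 overlapped. Of all clusters, 5.17% were higher without overlap. These 10 genes were picked for following an average that was itself higher on labelled transgenic arrays, which favours such separation. With each of the 9 set against the average of the other 8, r ran from 0.709 for Cdk1 to 0.957 for Birc5.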
